A study of Mus musculus with 2 samples.

Results

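The genes described here are 10 members of the protease network of the epidermis, chosen by name from 36528 gene identifiers in the deposited tables. They are the 7 kallikreins Klk5, Klk6, Klk7, Klk8, Klk10, Klk11 and Klk13, the protease inhibitors Spink5 and Cst6, and St14, which encodes the membrane protease matriptase. Their RNA was followed across keratinocyte states and other cell types in 2 droplet single-cell libraries of mouse skin cultures. The library labelled knockout came from 9 pooled neonates with floxed Bap1 on both alleles (Bap1fl/fl) and Rosa26-CreERT2, a recombinase gene at a locus used in all tissues whose product is switched on by tamoxifen. The library labelled wild type came from 11 pooled neonates with Rosa26-CreERT2 and no floxed Bap1 named. All were C57BL/6 mice at postnatal day 1, and both cultures of epidermal cells were given 4-hydroxytamoxifen (4-OHT), the drug that activates the recombinase, at 100 nM for 4 days. After 3 more days without it in M254 medium supplemented for melanocyte growth, the cells were harvested. The recombinase was therefore not limited to a cell type, and each genotype is 1 pool, 1 culture and 1 library.

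Bap1 encodes a deubiquitinase of histone H2A. Its own RNA was at 19.8 CPM (molecule counts scaled to a common library total) from 1279 unique molecular identifiers (UMIs) in the library labelled knockout, against 14.1 CPM (1088 UMIs) in the library labelled wild type. That goes against the label. Where the counted 3′ tags lie relative to the deleted part is not given in the sources used here, so this level checks neither label, and no direction below is tied to loss of Bap1. Since each genotype has 1 library, nothing measures the spread between cultures, and no test could be made. A gene is called higher or lower only by size, at 1.5-fold with at least 100 UMIs over both libraries together. Every interval in brackets is at 95% and covers counting error only. Each UMI counts 1 transcript end, so CPM values of different genes are set side by side without division by length. A summed level cannot tell apart fewer expressing cells and less RNA per cell.

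Kallikreins are secreted serine proteases made as inactive precursors in the outer living layers of the epidermis. Once active they cut the corneodesmosomes that hold dead surface cells together, and so control shedding of the horny layer. Spink5 encodes LEKTI, a multidomain inhibitor of several kallikreins, whose loss causes Netherton syndrome in people. Matriptase acts at the cell surface and, with its substrate prostasin, stands at the head of a related protease cascade. Cst6 encodes cystatin M/E, which inhibits cysteine proteases such as legumain and cathepsin L and not kallikreins.

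The 7 kallikreins lie in 1 group on chromosome 7 of assembly GRCm38.p6, in the order Klk13, Klk11, Klk10, Klk8, Klk7, Klk6 and Klk5, between bases 43712567 and 43851181. RefSeq promoter windows were at hand for 7 members. The stretches below are the part of each window that lies before the first base that RefSeq or GENCODE annotates for the gene, for the 5 kallikreins on which the results turn. All are on the plus strand, Klk7 at chr7:43811044-43811293, Klk6 at chr7:43824294-43824437, Klk8 at chr7:43797327-43797531, Klk10 at chr7:43780804-43781034 and Klk11 at chr7:43774367-43774603. Capitals mark a GC box (GGGCGG on either strand).
Klk7: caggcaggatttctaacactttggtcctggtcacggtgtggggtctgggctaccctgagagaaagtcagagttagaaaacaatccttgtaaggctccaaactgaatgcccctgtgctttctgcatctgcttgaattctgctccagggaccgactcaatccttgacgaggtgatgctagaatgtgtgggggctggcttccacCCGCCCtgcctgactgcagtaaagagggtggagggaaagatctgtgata
Klk6: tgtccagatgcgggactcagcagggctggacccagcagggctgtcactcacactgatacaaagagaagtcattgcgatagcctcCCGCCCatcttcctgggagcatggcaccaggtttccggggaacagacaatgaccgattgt
Klk8: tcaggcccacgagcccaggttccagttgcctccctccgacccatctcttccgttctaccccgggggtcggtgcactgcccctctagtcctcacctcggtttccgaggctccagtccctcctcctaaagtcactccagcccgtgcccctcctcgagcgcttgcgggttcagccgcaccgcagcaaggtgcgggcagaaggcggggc
Klk10: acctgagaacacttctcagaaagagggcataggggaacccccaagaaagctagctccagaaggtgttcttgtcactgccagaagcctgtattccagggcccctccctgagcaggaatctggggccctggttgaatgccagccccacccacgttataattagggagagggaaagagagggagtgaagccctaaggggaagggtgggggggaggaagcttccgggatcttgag
Klk11: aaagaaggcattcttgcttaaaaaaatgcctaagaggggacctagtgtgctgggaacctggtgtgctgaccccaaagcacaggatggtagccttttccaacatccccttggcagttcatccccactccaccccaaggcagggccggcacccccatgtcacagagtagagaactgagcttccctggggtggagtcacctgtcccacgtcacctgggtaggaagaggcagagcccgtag

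The stretches of Klk7 and Klk6 hold 1 GC box each, and the other 3 hold none. In the full windows of 250 bases before a start, a GC box was present in 4 of 9 member windows. These were 2 windows of Klk6 and 1 each of Klk7 and Klk8, where it begins 49 bases (Klk7) and 42 bases (Klk8) before the start. Of all 32851 promoter windows in the table, 32.7% hold one. The GATA motif AGATAA was found in 1 member window, of Klk5, and in 9.99% of all windows. Other letters searched on both strands were the AP-1 motif TGANTCA, the TATA box TATAAA, the grainyhead-type motif AACNGGTT, the E-box CACGTG, the letters CCAAT of the box of that name and the KLF-type motif CCACACCC. Each was found in 0 of 9 member windows. The shares of all windows were 6.75%, 12.4%, 1.79%, 6.02%, 33.8% and 3.20% in that order. No motif overlapped another in a member window.

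The library labelled knockout held 1760 cells with 64954113 UMIs and the library labelled wild type 1926 cells with 77579465 UMIs, at a median of 33585 and 37223 UMIs per cell. After filters 1738 and 1912 cells were left, in 10 clusters built without the 10 members among the genes used. Clusters 0 to 5 (1596 and 1750 cells) are called keratin-rich, as no marker list of another cell type led them. The keratin gene Krt14 was at 2108 to 15372 CPM in them and at 289 to 1508 CPM in clusters 6 to 9. Cluster 0 (206 and 327 cells) was suprabasal-like, with 12 of 18 suprabasal markers raised at least 5-fold above the mean of the rest. Krt1, a keratin of the living upper layers, was among the raised markers but at only 1.24 and 0.872 CPM, and its partner Krt10, at 30.1 and 38.2 CPM, was not raised. The basal keratin Krt14 was at its highest there, at 15372 and 13890 CPM. Cluster 4 (19 and 147 cells) was cycling-like. Cluster 3 was held mostly by the library labelled knockout (610 and 37 cells) and cluster 1 by the library labelled wild type (86 and 738 cells). Myeloid-like, Schwann-like and melanocyte-like cells formed clusters 7, 8 and 9, and cluster 6, with fibroblast and muscle markers, stayed unnamed. These names were rebuilt from marker lists and may differ from the study's own. The libraries shared 3 cell barcodes.

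Among the kallikreins Klk8 RNA was by far the most abundant. Klk8, a trypsin-like kallikrein also called neuropsin, was at 421 CPM in all kept cells of the library labelled knockout, against 289.6 CPM in the library labelled wild type. It made up 63.7% and 54.8% of the UMIs of the 7 kallikreins. Klk6, another trypsin-like member, was next with 91.3 and 110.2 CPM, then Klk7, the chymotrypsin-like protease that cuts corneodesmosin, with 60.9 and 62.9 CPM. Klk11 was at 50.9 and 33.5 CPM and Klk10 at 36.8 and 31.7 CPM. Klk5 and Klk13, by contrast, were hardly counted. Klk5, which activates itself and other kallikreins in human skin, had 32 UMIs in the library labelled knockout, 18 of them in 1 cell, against 19 UMIs in the library labelled wild type. Klk13 had 4 UMIs, 3 of them in that same cell, against 3 UMIs. Neither allows a comparison at this depth.

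**Figure D1:**
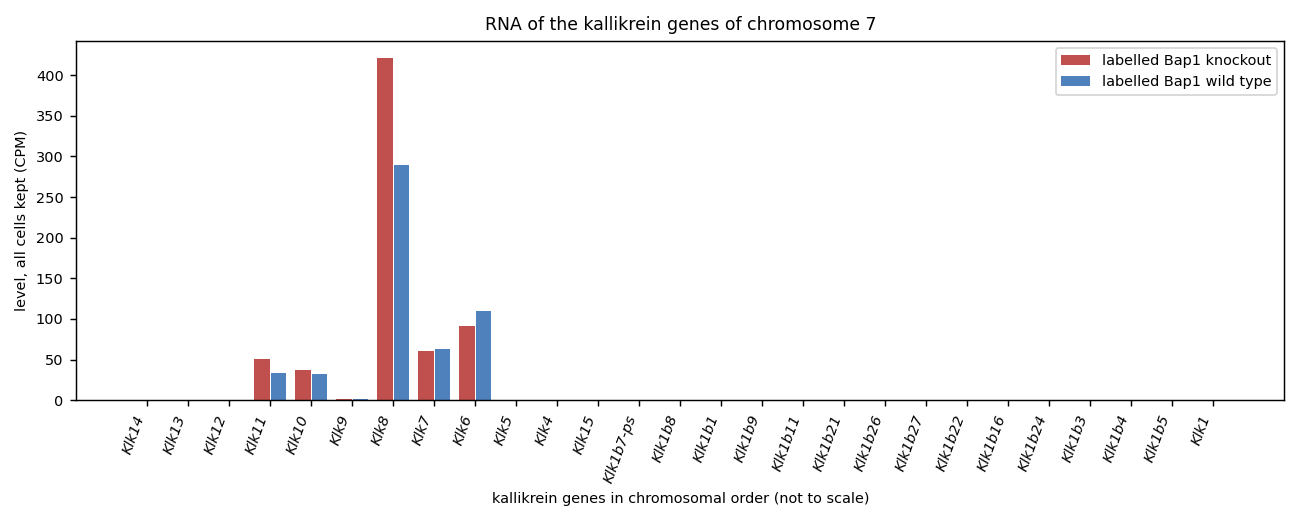
Level in CPM over all kept cells (y axis) of the 27 kallikrein genes of chromosome 7 in chromosomal order (x axis, not to scale), red bars for the library labelled knockout and blue bars for the library labelled wild type. Klk8 stands at 421 and 289.6 CPM, Klk6, Klk7, Klk10 and Klk11 lie between 31.7 and 110.2 CPM, and the bars of the other genes are close to 0.

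The counted kallikreins are neighbours. RefSeq lists 27 kallikrein genes in the chromosome 7 group, and 20 are not members. Of these 20, 19 had fewer than 20 UMIs in each library and 8 had none in either. The exception was Klk9, which lies between Klk10 and Klk8, with 64 UMIs in the library labelled knockout and 83 in the library labelled wild type. The 5 members with over 2000 UMIs in each library thus form a run from Klk11 to Klk6 that only the low Klk9 breaks. The mouse-specific Klk1b copies are close relatives of one another, and their few UMIs are uncertain between copies.

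Of the 8 members with enough UMIs, cluster 0 held most RNA of 5, and the other 3 were spread more evenly. Klk6 had 93.7% of its UMIs in the 206 cells of cluster 0 of the library labelled knockout, and 89.2% in the 327 cells of the library labelled wild type. For Spink5 the shares were 91.9% and 84.7%, for Cst6 83.5% and 79.7%, for Klk7 80.4% and 84.5% and for Klk10 68.5% and 61.4%. Klk11 had 44.0% and 43.7% of its UMIs there. Klk8 had 27.1% and 30.7%, and St14 14.0% and 15.6%. Of the few Klk5 UMIs 75.0% of 32 and 57.9% of 19 were there, or 42.9% in the library labelled knockout without the cell that held 18 of them. Cluster 0 cells made up 11.9% and 17.1% of each library.

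Set against clusters 1 to 5 together, the level of Klk6 in cluster 0 was 105-fold higher in the library labelled knockout and 41.8-fold higher in the library labelled wild type. Spink5 was 77.7-fold and 28.0-fold higher, Cst6 35.3-fold and 19.9-fold, and Klk7 28.1-fold and 27.4-fold. Klk10 came next at 14.8-fold and 7.89-fold. Klk11 was 5.32-fold and 3.81-fold higher and Klk8 only 2.52-fold and 2.18-fold higher. St14 barely differed, at a log2 ratio of 0.13 and −0.13. In cluster 0 of the library labelled knockout 1 cell held 7952 UMIs of Cst6, and without it Klk6 was 88.2-fold, Spink5 71.4-fold, Klk7 22.5-fold, Cst6 14.0-fold and Klk10 12.9-fold higher there. The Cst6 share in cluster 0 was then 66.4%, and that of Klk7 76.5%. The order of the 8 members by this fold was the same in both libraries except that Cst6 and Klk7 changed places, and without that cell it was the same throughout. The clusters were built from the same cells without these genes, and the order has no test.

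**Figure D2:**
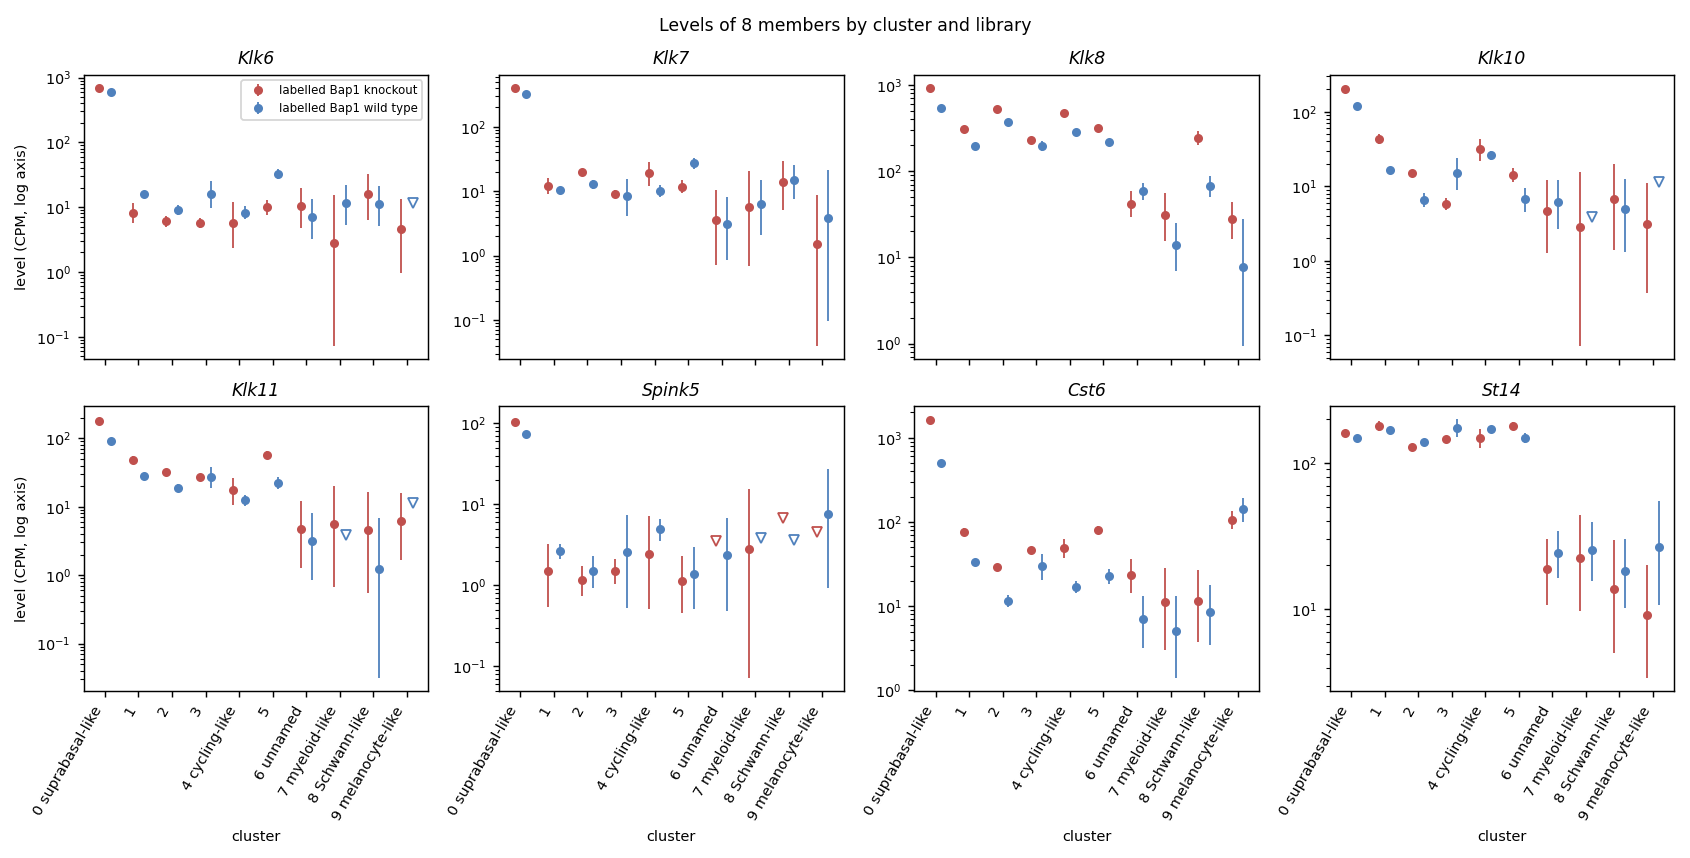
Level in CPM on a log axis (y) of 8 members in clusters 0 to 9 (x), red for the library labelled knockout and blue for the library labelled wild type, with 95% Poisson intervals as bars. Open triangles mark the level of 3 UMIs where a library had 0. Klk6, Klk7, Klk10, Spink5 and Cst6 peak in cluster 0, whereas St14 stays between 129 and 180 CPM in clusters 0 to 5 and at 9.23 to 26.7 CPM elsewhere.

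St14 lies on chromosome 9 (31088590 to 31131811), Spink5 on chromosome 18 (43959545 to 44022487) and Cst6 on chromosome 19 (5344705 to 5349574), all outside the kallikrein group. No other annotated gene overlaps a member.

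Among keratin-rich cells the RNA sat in few cells for some members and in many for others. Among the keratin-rich cells of the library labelled knockout 4 cells held 50% of the Klk6 UMIs, and in the library labelled wild type 5 cells did. For Klk7 it was 6 and 9 cells, for Spink5 10 and 9 cells, and for Klk10 20 and 14 cells. Klk11 needed 82 and 103 cells, Klk8 153 and 251 cells and St14 369 and 419 cells. Cst6 was the extreme case. In the library labelled knockout 1 cell of cluster 0, with 101124 UMIs in all, held 7952 Cst6 UMIs, 50.8% of the Cst6 of that library. In the library labelled wild type the top cell had 1951 Cst6 UMIs, and 5 cells held 50%.

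That cell of the library labelled knockout also held 932 Klk6, 657 Klk7, 231 Klk10 and 78 Spink5 UMIs. These were 15.8%, 16.7%, 9.72% and 8.51% of each gene's UMIs in its library. It held only 0.964% of Klk8, 0.670% of Klk11 and 0.152% of St14.

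**Figure D3:**
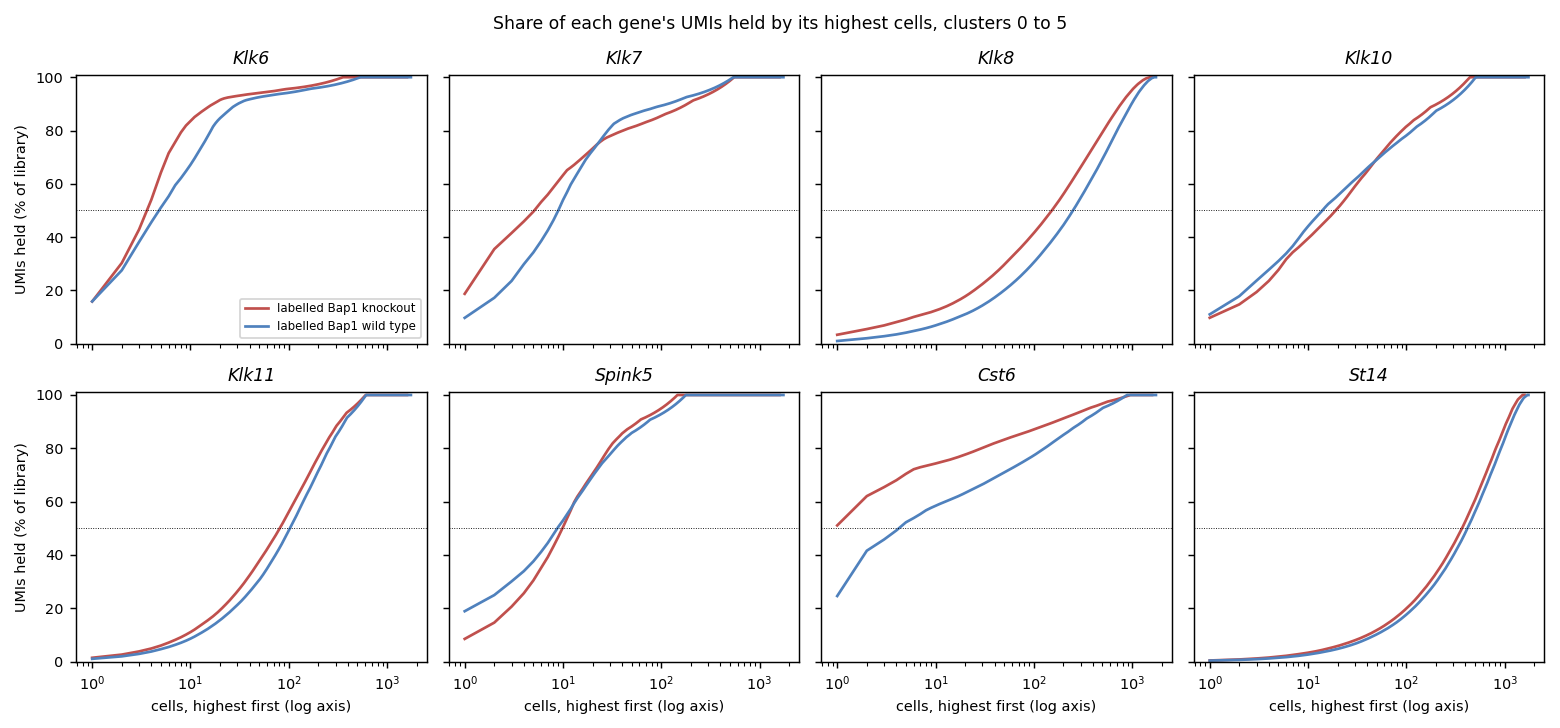
Percent of a gene's UMIs in clusters 0 to 5 (y) held by its highest cells, counted from the highest down on a log axis (x), for 8 members, red for the library labelled knockout and blue for the library labelled wild type, with a dotted line at 50%. Klk6 crosses it at 4 and 5 cells and St14 at 369 and 419 cells, and the Cst6 line of the library labelled knockout starts at 51.1% with 1 cell.

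At equal depth the share of cells with a UMI was again high for Klk8 and St14 and low for Klk6 and Spink5. Cst6 did not follow the contrast, as it was seen in more cells than Klk11. With every cell thinned to 2000 UMIs, Klk8 was seen in 41.7% of keratin-rich cells of the library labelled knockout (39.2 to 44.1) and in 36.4% of those of the library labelled wild type (34.1 to 38.7). St14 was seen in 25.7% and 26.1%. Cst6 was seen in 11.0% (9.53 to 12.7) and 8.29% (7.04 to 9.68). Klk11 was seen in 7.39% and 6.17%. Klk6, in spite of its higher level, was seen in 2.57% (1.85 to 3.47) and 4.51% (3.59 to 5.59), and Spink5 in 1.63% and 1.83%. Unthinned, the shares were 94.5% and 95.3% for Klk8, 22.3% and 30.6% for Klk6, 59.5% and 50.7% for Cst6, and 9.15% and 10.2% for Spink5. In myeloid-like cells, which should lack these genes, Klk6 had a UMI, unthinned, in 1 of 20 and 9 of 36 cells, with a median of 16120 and 19443.5 UMIs per cell. The keratin-rich share of the library labelled wild type is near that background and is not read as expression, and in the library labelled knockout the background rests on 1 of 20 cells.

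Cells of cluster 0 differed in which kallikreins were seen in them. With every cell thinned to 8000 UMIs, all 5 of Klk6, Klk7, Klk8, Klk10 and Klk11 were seen in 4.85% of its 206 cells in the library labelled knockout and 2.75% of its 327 cells in the library labelled wild type. None of the 5 was seen in 5.83% and 7.95%. At this depth a kallikrein with few UMIs per cell can be missed by sampling. The part of sampling in these shares was not tested. Spearman correlations across cells, given as a description over 206 and 327 cells that share library and free RNA, were highest for Klk7 with Klk8 at 0.64 and 0.50. Klk6 with Klk7 followed at 0.43 and 0.46. Klk11 had correlations with Klk6, Klk7 and Klk8 between −0.04 and 0.08, and with Klk10 of 0.40 and 0.20. St14 with Klk7 was at −0.19 and 0.01. In the library labelled knockout St14 was also between −0.18 and −0.13 with Klk6, Klk8, Klk10, Spink5 and Cst6, and at 0.03 with Klk11. In the library labelled wild type its correlations with the other members lay between −0.08 and 0.14.

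Cluster 0 cells with RNA of the inhibitor Spink5 more often had Klk6 and Klk7 than those without. Of 43 cluster 0 cells with a Spink5 UMI in the library labelled knockout, 46.5% had Klk6 (31.2 to 62.3), against 13.5% of 163 cells without one (8.66 to 19.7). In the library labelled wild type it was 42.9% of 49 cells with a Spink5 UMI and 18.0% of 278 without. Klk7 was seen in 44.2% against 18.4% of cells in the library labelled knockout, and in 46.9% against 19.4% in the library labelled wild type. For Klk8 the shares were 86.0% against 82.2%, and 87.8% against 84.2%, so the intervals overlapped in both libraries. Klk10 was seen in 46.5% (31.2 to 62.3) against 35.0% (27.7 to 42.8) of cells in the library labelled knockout, and in 38.8% against 20.1% in the library labelled wild type. Cst6 was seen in 79.1% (64.0 to 90.0) against 54.6% (46.6 to 62.4) of cells in the library labelled knockout. In the library labelled wild type it was 65.3% (50.4 to 78.3) against 48.2% (42.2 to 54.2). For Klk11 the direction differed, with 37.2% against 47.2% in the library labelled knockout and 51.0% against 30.6% in the library labelled wild type. St14 also differed in direction, with 65.1% against 74.2%, and 73.5% against 66.9%. Outside cluster 0 Spink5 was almost not counted while Klk8 remained. Without thinning there were 22.7 kallikrein UMIs per Spink5 UMI in cluster 0 of the library labelled knockout. In that of the library labelled wild type there were 22.9. In clusters 1 to 5 there were 319.7 (254 to 408) against 119.9 (103 to 141), from 73 and 162 Spink5 UMIs. The part of free RNA in those UMIs was not tested.

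Between the libraries, Klk8, Klk11 and Cst6 had higher sums in the library labelled knockout over all keratin-rich cells, and Klk6 a lower one. Only Klk11 and Cst6 passed 1.5-fold, 2 of the 8 members with enough UMIs, and 0 were lower. Of all 13552 genes tested there, 5.36% were higher, 13.9% lower and 19.2% either, and the median log2 ratio was 0.00. Klk11 had 3273 UMIs (52.6 CPM) in the library labelled knockout and 2591 UMIs (34.9 CPM) in the library labelled wild type, a log2 ratio of 0.59 (0.52 to 0.67) that lies just inside 1.5-fold. Klk8 had 27016 UMIs (434 CPM) and 22280 UMIs (299.97 CPM), a log2 ratio of 0.53 (0.51 to 0.56) just outside it. Cst6 had 15569 UMIs (250.2 CPM) and 7931 UMIs (107 CPM), a log2 ratio of 1.23. Without the 1 cell described above the Cst6 ratio was 0.20 (0.15 to 0.25), and 1 member was called, Klk11. With the highest cell of each library left out for each gene, Cst6 was at 123 against 80.5 CPM, a log2 ratio of 0.61 (0.56 to 0.66), and both members were called.

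The remaining members had smaller ratios. Klk6 had 5871 UMIs (94.4 CPM) in the library labelled knockout and 8508 UMIs (115 CPM) in the library labelled wild type, a log2 ratio of −0.28 (−0.33 to −0.23), or −0.53 without that cell. Klk7 had 3915 and 4850 UMIs, with a ratio of −0.05, or −0.32 without the cell. Klk10 stood at 0.21, or 0.06 without the cell, Spink5 at 0.00 (−0.12 to 0.13), or −0.12 without it, and St14 at −0.11 (−0.15 to −0.07). The 7 kallikreins together had 683 CPM against 548 CPM, a log2 ratio of 0.32 (0.30 to 0.34), led by Klk8.

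The same comparison cluster by cluster separated Klk8 from Klk6. Klk8 was higher in the library labelled knockout in 6 of 6 keratin-rich clusters, with intervals above 0 in all 6. It stood at 914 against 546 CPM in cluster 0, 525 against 375 CPM in cluster 2, 305 against 197 CPM in cluster 1 and 230.3 against 198 CPM in cluster 3. Klk6 was lower in 5 of 6 clusters, with 4 intervals below 0, and higher only in cluster 0, at 685 against 604 CPM, where it was 577 against 604 CPM without the cell with most Cst6. In clusters 1 to 5 together Klk6 was at 6.54 CPM in the library labelled knockout and 14.4 CPM in the library labelled wild type, a log2 ratio of −1.14 (−1.33 to −0.97). Levels of that size are near those of myeloid-like cells (2.80 and 11.5 CPM) and Schwann-like cells (16.0 and 11.0 CPM), where the source of the UMIs was not tested. The part of free RNA in the Klk6 ratio was not tested.

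Cst6 was likewise higher in 6 of 6 clusters with intervals above 0, at log2 ratios between 0.63 and 1.83. Its cluster 0 ratio of 1.69 fell to 0.35 (0.30 to 0.41) without the cell with 7952 Cst6 UMIs. With equal weight for each cell that ratio was 0.099. In clusters 1 to 5, which do not hold this cell, Cst6 stood at 46.0 against 25.4 CPM (0.86, 0.77 to 0.95). Myeloid-like cells had 11.2 and 5.11 CPM of Cst6, and the part of free RNA was not tested. With equal weight for each cell, Cst6 over all keratin-rich cells turned to −0.20. Klk10 and Klk11 were higher in 5 of 6 clusters each. In cluster 3 Klk10 was lower, at 5.83 against 15.3 CPM, and Klk11 was at 26.9 against 27.2 CPM. Of the library labelled wild type only 37 cells were in that cluster, and its content differed between the libraries. The 10 melanocyte markers summed to 406 CPM there in the library labelled knockout and 3138 CPM in the library labelled wild type. The 8 stress markers summed to 5364 and 1760 CPM. What this difference contributes to the ratios in cluster 3 was not tested. Spink5 was higher in cluster 0 and lower in the other 5 clusters, with 0 of those 5 intervals below 0. In these 5 clusters together it had 73 UMIs (1.35 CPM) against 162 UMIs (2.63 CPM), a log2 ratio of −0.96 (−1.38 to −0.56). Cells outside the keratin-rich clusters had 0.435 and 1.59 CPM of Spink5, from 1 and 5 UMIs. The part of free RNA in the Spink5 ratio was not tested.

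**Figure D4:**
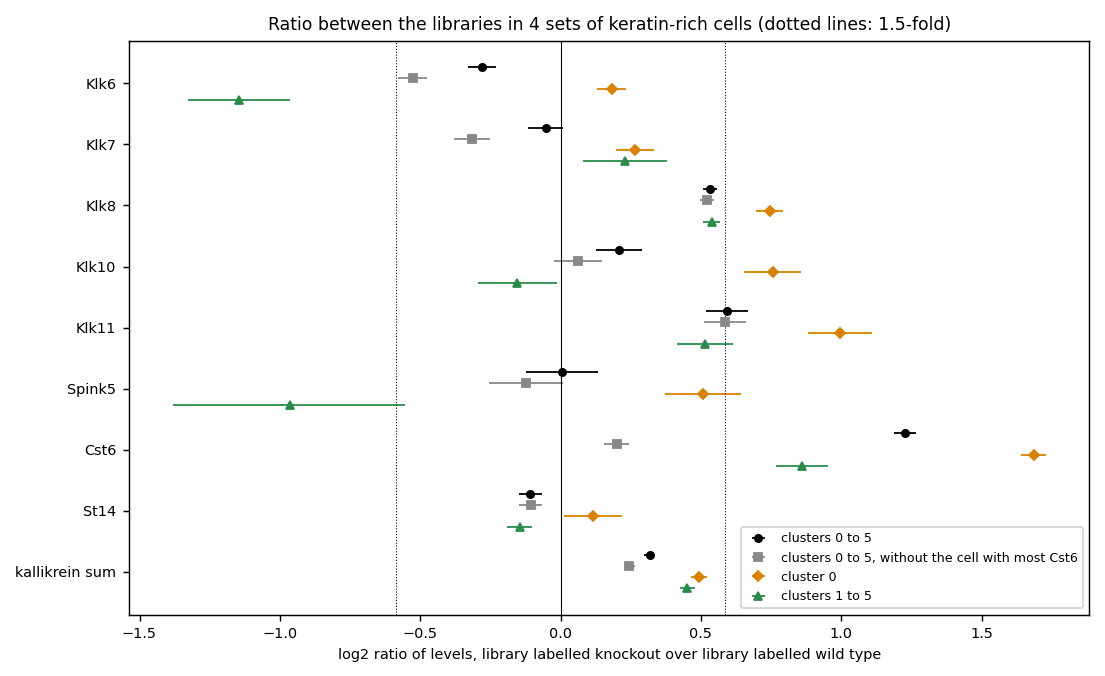
Log2 ratio of levels, library labelled knockout over library labelled wild type (x), of 8 members and the sum of the 7 kallikreins (y) in 4 sets of keratin-rich cells, with 95% counting intervals as bars and dotted lines at 1.5-fold. Klk8 and Klk11 lie right of 0 in every set, Klk6 ranges between −1.14 and 0.18, and Cst6 moves to 0.20 without the cell that holds most of its RNA.

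In the suprabasal-like cluster 0 every one of the 8 members with enough UMIs had a ratio above 0, and 4 passed 1.5-fold. They were Klk8, Klk10, Klk11 and Cst6. Of 9630 genes tested in cluster 0, 4.5% were higher, 8.67% lower and 13.2% either. Klk11 was at 179 CPM (1445 UMIs) in the library labelled knockout and 89.9 CPM (1134 UMIs) in the library labelled wild type, a log2 ratio of 1.00 (0.88 to 1.11). Klk8 had a ratio of 0.74 (0.70 to 0.79). Klk10 was at 202 against 119.7 CPM (0.76), and at 0.55 without the cell with most Cst6. Cst6 was at 1624 against 505 CPM (1.69), and at 645 against 505 CPM (0.35) without that cell, which leaves 2 calls, Klk8 and Klk11. Spink5 was at 105 against 73.6 CPM (0.51), and at 0.39 without that cell. Klk7 was at 392 against 326 CPM (0.27) and Klk6 at 0.18. Without the cell both were just below 0, at −0.05 and −0.07. With the highest cell of each library left out for each gene, 5 members were called. They were Klk8 (0.60), Klk10 (0.72), Klk11 (0.99), Spink5 (0.74) and Cst6, at 645 against 351 CPM (0.88, 0.82 to 0.94). Weighting each cell equally gave 3 calls, Klk8, Klk11 and Spink5.

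Cluster 0 did not have the same content in both libraries. Among suprabasal markers in it, Sprr2d, a cornified envelope precursor, was at 319 against 1642 CPM and Cnfn (cornifelin) at 318 against 909 CPM. Ivl (involucrin) was at 548 against 279.5 CPM and Cdsn, the corneodesmosin that kallikreins cut, at 62.0 against 27.8 CPM. Of the 14 suprabasal markers with enough UMIs, 6 were higher and 3 lower, beside 4.5% and 8.67% of all genes tested there. The summed level of all 18 was 2891 against 3894 CPM, with 0 and 1 of them at 0. What this difference contributes to the ratios of the members was not tested.

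Outside the keratin-rich clusters most members had few UMIs. St14 across clusters 6 to 9 was at 9.23 to 22.4 CPM for the library labelled knockout and 18.4 to 26.7 CPM for the library labelled wild type. In clusters 0 to 5 it was at 129 to 180 CPM. Krt14, a keratin these cells should lack, was at 289 to 485 CPM in the myeloid-like, Schwann-like and melanocyte-like clusters. How much of it was free RNA or came from unmarked doublets was not tested. Klk8 in Schwann-like cells was at 243 CPM (106 UMIs, 199 to 294) in the library labelled knockout and 67.3 CPM (55 UMIs, 50.7 to 87.6) in the library labelled wild type. In myeloid-like cells it was at 30.9 and 14.1 CPM. Of the 106 UMIs 38 were in 1 cell, and without it the level was 159.6 CPM. Per Klk7 UMI there were 17.7 Klk8 UMIs (7.85 to 49.2) in those Schwann-like cells, with that cell counted and only 6 Klk7 UMIs. In the library labelled knockout there were 6.90 in all keratin-rich cells and 26.0 in clusters 1 to 5. In the library labelled wild type there were 4.58 (2.43 to 9.40) in Schwann-like cells, 4.59 in all keratin-rich cells and 21.0 in clusters 1 to 5.

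Cst6 was also counted in melanocyte-like cells, at 106 CPM (69 UMIs) in 56 cells of the library labelled knockout and 141 CPM (37 UMIs) in 22 cells of the library labelled wild type. In myeloid-like cells it was at 11.2 and 5.11 CPM and in Schwann-like cells at 11.4 and 8.57 CPM. The highest melanocyte-like cell held 10 of the 69 UMIs and 9 of the 37. After thinning to 2000 UMIs Cst6 was seen in 17.9% of melanocyte-like cells (8.91 to 30.4) and 13.6% (2.91 to 34.9), and in 0 of the 20 and 36 myeloid-like cells.

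Most genes around the members in the cascade stayed within 1.5-fold between the libraries, in keratin-rich cells. Of all 13552 genes tested there, 5.36% were higher and 13.9% lower, to be set beside each count over keratin-rich cells below. Of 7 matriptase partners and inhibitors with enough UMIs, 0 were higher and 2 lower, with a median log2 ratio of −0.12. Spint1, which encodes the matriptase inhibitor HAI-1, was at 191 against 195 CPM (−0.03). Spint2, in the same list, was higher by less than 1.5-fold, at 2263 against 1847 CPM (0.29, 0.28 to 0.30). Prss8, which encodes prostasin, was at 34.1 against 37.0 CPM (−0.12). The lower genes were Mst1r, a receptor tyrosine kinase (−1.41), and the membrane protease gene Tmprss13 (−0.81). F2rl1, the receptor that kallikreins and matriptase can cleave, stood at 98.8 against 120.2 CPM (−0.28).

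The inhibitors other than the members showed no common direction. Of 10 serine protease inhibitors of epithelia 1 was higher and 2 lower, with a median of −0.22. Serpinb1a was higher at 4.36 against 0.687 CPM (2.67), and Serpinb2, which encodes the plasminogen activator inhibitor PAI-2, was lower at 142 against 318 CPM (−1.16). Serpina3n was the other lower gene (−1.93). Slpi, a secreted inhibitor of leukocyte elastase, stood at 242 against 246 CPM.

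Of 10 cystatins and their targets, 1 was higher and 2 lower, with a median of −0.23. Lgmn, which encodes legumain, the main target of cystatin M/E, was lower at 75.5 against 129.5 CPM (−0.78). In cluster 0 alone Lgmn was level, at 130.04 and 129.8 CPM. Ctsc, which encodes cathepsin C, was lower (−0.96), and the stefin gene Stfa3 was higher (0.85). Ctsl, the cathepsin L gene, stood at 966 against 1411 CPM (−0.55), short of 1.5-fold.

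Of 6 genes of corneodesmosomes and kallikrein substrates, 0 passed 1.5-fold in either direction over the keratin-rich cells, with a median of −0.15. In cluster 0, 3 of 6 were higher, beside 4.5% of all 9630 genes tested there. They were Cdsn (1.16), Dsc2, a desmosomal cadherin (0.70), and F2rl1 (0.67), which is also in the matriptase list. Of 7 cornification enzymes 0 were higher and 2 lower, with a median of −0.31. These were Asprv1, a protease that processes filaggrin, at 32.1 against 58.0 CPM (−0.85), and the sphingomyelinase gene Smpd1 at 10.6 against 28.8 CPM (−1.44). Of 15 regulators of differentiation 1 was higher, Maf (1.11), and 5 were lower, with a median of −0.07. Among the lower were Grhl3 (−1.05), Ovol1 (−0.89) and Trp63 (−1.02), transcription factors of epidermal development. The basal marker list had 0 higher and 6 lower of 10, with a median of −0.81. The 8 members had 2 higher and 0 lower, beside 5.36% higher and 13.9% lower of all genes tested. Their median was 0.11, beside 0.00 over all genes tested. That contrast depends on the 1 cell with most Cst6. Without it 1 member was called, Klk11. Klk6 (−0.53), Klk7 (−0.32), Spink5 (−0.12) and St14 (−0.11) then lay below 0, and the other members above it.

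**Figure D5:**
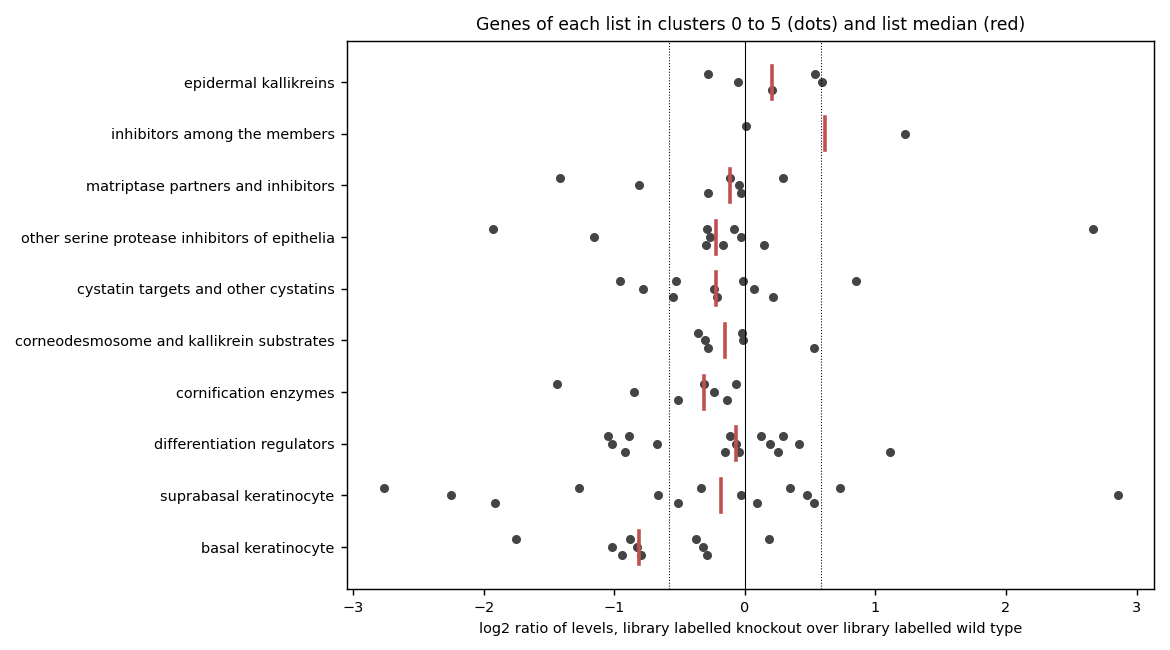
Log2 ratio of levels in clusters 0 to 5, library labelled knockout over library labelled wild type (x), of each gene with at least 100 UMIs (dots) in 10 lists (y), with list medians in red and dotted lines at 1.5-fold. The medians lie between −0.81 for basal keratinocyte markers and 0.62 for the 2 inhibitors among the members, of which Cst6 stood at 1.23 with and 0.20 without its highest cell.

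The genes with the pattern most like that of the kallikreins over clusters were ranked among 10504 genes, by Pearson's r of log2 CPM over 19 points. A point is a cluster in 1 library with at least 20 cells, and points share libraries and free RNA. For the sum of the kallikreins they were Tmem184a (0.93), Rab10 (0.92), Tmem43 (0.91), Nrarp (0.91) and S100a16 (0.91). Spink5 was most like Mall (0.91), Cldn11 (0.90), Cysrt1 (0.90), 2300002M23Rik (0.90) and Asprv1 (0.89). Cst6 was most like Lrrc26 (0.90), Rnase1 (0.89), Gpr137b (0.88), Vamp8 (0.87) and Tmprss11d (0.87). St14 was most like the epithelial junction genes Cldn4 (0.98), Cldn3 (0.98) and F11r (0.98), and Epcam (0.97). Among the members themselves Klk6 and Klk7 had the highest r, 0.90, followed by Klk8 with Klk11 at 0.89. Cst6 and St14 had the lowest, 0.35.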

How the data were processed

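RNA of mouse epidermal cultures was measured in 2 libraries, 1 labelled Bap1 knockout and 1 labelled Bap1 wild type, with the 10x Genomics Chromium 3′ kit, per the labels. The authors deposited a table of counts of genes by cells per library, whose whole numbers were read as UMI counts. The submitters' processing notes name Cell Ranger 2.1, Seurat 2.0 and mm10 without their roles. The treatment of intronic and antisense reads, the calling of cells and any removal of doublets before deposit are not given in the sources used. Of 36528 identifiers 31049 matched a RefSeq symbol, and the others held 2.67% of UMIs.

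Cells with at least 500 genes and at most 10% mitochondrial UMIs were kept, which removed 16 cells of the library labelled knockout and 13 of the library labelled wild type. Scrublet marked 7 and 1 cells as doublets at an assumed rate of 0.02, so few that it may not have worked, and they were removed. Both libraries were clustered together without integration, with totals scaled to 10000, 2000 variable genes without the 10 members, 30 components, 15 neighbours and Leiden resolution 0.5. Names needed at least 3 markers at 5-fold. Keratin-rich was the class of clusters that no list of another cell type led with at least 3 markers, and no keratin level was required. UMIs were summed per cluster and library and divided by the total. Intervals are exact Poisson, conditional exact or Clopper-Pearson, at 95%. A gene was called at 1.5-fold with at least 100 UMIs, and a level of 0 was set at a floor of 3 UMIs. Thinning drew 2000 or 8000 UMIs per cell and left out no cell. Correlations across cells used log2 values with a pseudocount of 1. The ratio code was tested on simulated data.

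The members and gene lists were chosen with earlier results of these data known. The genes named are the 10 members, list genes past 1.5-fold, a few cascade genes given by role, and the 5 genes most like a member, among genes with at least 500 UMIs. For St14, 1 of these genes is not reported here. The cascade genes that did not pass were chosen after their values were seen. Alternatives are given in the closing section, and those leaving out cluster 3, cluster 5 or the 1 cell with most Cst6, and those within cluster 0, were chosen after seeing the data. Clustering used scanpy 1.11.5 with igraph 0.11.9, scikit-learn 1.9.0 and anndata 0.12.19 under Python 3.11.15. Intervals used scipy 1.17.1, tables pandas 2.3.3 and numpy 2.4.6, and figures matplotlib 3.10.9. TMM factors alone came from edgeR 4.0.16 in R 4.3.3.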

Additional observations from a re-analysis of the deposited data

Results flagged for a closer look

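For 4 members the ratio of the library labelled knockout over the library labelled wild type had opposite directions in different keratin-rich clusters, with counting intervals on opposite sides of 0. With 1 library per genotype this difference between clusters was not tested. Klk6 had its highest log2 ratio in cluster 0, at 0.18 (0.13 to 0.23), and its lowest in cluster 5, at −1.72 (−2.17 to −1.28), where it had 62 and 142 UMIs. The cluster 0 value of Klk6 was −0.07 without the 1 cell with most Cst6. Klk7 was at 0.91 (0.18 to 1.58) in cluster 4, with 23 and 88 UMIs, and at −1.20 (−1.64 to −0.77) in cluster 5, with 73 and 117 UMIs. Klk10 was at 1.37 (1.12 to 1.62) in cluster 1 and at −1.39 (−2.11 to −0.59) in cluster 3, where the library labelled wild type had 18 UMIs in 37 cells. St14 was at 0.28 (0.14 to 0.42) in cluster 5 and at −0.25 (−0.45 to −0.03) in cluster 3. The melanocyte and stress markers of cluster 3 also differed between the libraries, and the part of this in its ratios was not tested. Cluster 5 had the lowest median depth of the keratin-rich clusters, 23535 and 18189 UMIs per cell, and the part of depth in its ratios was not tested.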

How the results depend on the processing

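No paired analysis was possible because each genotype has 1 library and the labels give no replicate numbers. Over keratin-rich cells 2 members passed 1.5-fold, Klk11 and Cst6. The count was 1 at 2-fold and without cluster 5 (Cst6 each time), 1 without the 1 cell with most Cst6 (Klk11), 1 with cells thinned to 2000 UMIs and 1 with equal weight for each cell (Klk6, lower). It was 4 without cluster 3 and with equal weight for each cluster (Klk8, Klk10, Klk11 and Cst6 both times), 3 without cluster 0 (Klk6 and Spink5 lower, Cst6 higher) and 2 without the top cell of each library for each gene (Klk11 and Cst6). In cluster 0 the count of 4 became 1 at 2-fold (Cst6), 2 without the cell with most Cst6 and 5 without the top cell of each library for each gene (Spink5 added). The log2 ratio of the summed kallikreins, 0.32, was 0.066 with thinned cells, 0.075 with equal weight for each cell, 0.25 without the cell with most Cst6, 0.34 without cluster 5, 0.45 without cluster 0, 0.49 with equal weight for each cluster and 0.71 without cluster 3. Of the 2 called members Cst6 changed sign, to −0.26 with thinned cells and −0.20 with equal weight for each cell, and the cause was not tested. Over 17 alternatives Klk8 kept its direction at 0.50 to 0.86, Klk11 at 0.40 to 0.93 and St14 at −0.24 to −0.01. Ranges that crossed 0 were −1.14 to 0.30 for Klk6, −0.45 to 0.48 for Klk7, −0.15 to 0.75 for Klk10 and −0.96 to 0.57 for Spink5. TMM factors moved every log2 ratio by −0.003. Other cell filters, kept doublets, other resolutions, the members among the variable genes and a common UMI minimum left 2 calls over keratin-rich cells and a summed ratio of 0.32. Depth limits Klk5 and Klk13, which were too low to compare.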
